A study of Mus musculus with 6 samples.

Results

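The miR-99, miR-100 and miR-125 miRNAs were followed in mouse hearts under pressure overload. They were taken by name as 8 of the 1966 rows of a table of mature miRNA counts: miR-99a-5p, miR-99a-3p, miR-99b-5p, miR-99b-3p, miR-100-5p, miR-125a-5p, miR-125a-3p and miR-125b-5p. All hearts came from male wild-type mice, collected 8 weeks after an operation. In 3 mice (29, 78 and 81) the operation was transverse aortic constriction (TAC), which narrows the aorta and loads the left ventricle, and 3 mice (47, 68 and 69) had sham surgery. The sources used here give no strain, age or batch.

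Library totals were 1818725 to 3509001 counts in sham and 1226187 to 1795831 counts in TAC. Every TAC library was thus shallower than every sham library, and the sham heart 47 was the deepest. Levels are CPM, counts scaled to a common library size by TMM, a factor that centres most miRNAs between libraries. Mature rows are of nearly equal length, 21 to 24 nt here, so levels were not divided by length. Whether unlike sequences were captured equally was not tested, so comparisons between rows are of counts and not of molecules. A miRNA is said to rise or fall in TAC where the edgeR quasi-likelihood test over all 354 miRNAs with enough counts gave an adjusted p under 0.05, and values after ± are SD of 3 hearts for levels and standard errors for log2 fold changes. The heart label matched the counts of 6 cardiomyocyte miRNAs (miR-1a, miR-133, miR-208 and miR-499 rows), all detected, with summed levels of 166435.8 to 199217.3 CPM in sham and 295096.3 to 354101.5 CPM in TAC. In whole tissue, fewer cells of a type and less RNA per cell cannot be told apart.

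These miRNAs descend from an old gene cluster. miR-125 is the vertebrate relative of lin-4, the worm miRNA that times larval stages together with let-7, and a let-7 hairpin lies between a miR-99 or miR-100 hairpin and a miR-125 hairpin at each of 3 mouse loci. Each hairpin is cut into a 5p arm and a 3p arm. The 5p arm is the one usually loaded into Argonaute here, and the 3p arm is usually degraded. miR-99 and miR-100 are known to repress the growth kinase gene Mtor, and miR-125 represses Lin28, whose protein blocks let-7 maturation. In cardiac fibroblasts, miR-125b has been described as promoting the change to myofibroblasts.

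Mature sequences are shown because the single-base difference between miR-99a-5p and miR-100-5p, and the unlike 3p arms of the miR-125b hairpins, decide what the counts can separate. They are from RefSeq (GRCm38.p6, the assembly of the mm10 coordinates), which held all 8 rows, and are written 5′ to 3′ with the seed, bases 2 to 8, in capitals.
miR-99a-5p: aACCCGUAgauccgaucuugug
miR-100-5p: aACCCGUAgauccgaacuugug
miR-99b-5p: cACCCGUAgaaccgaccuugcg
miR-125a-5p: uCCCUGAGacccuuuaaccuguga
miR-125b-5p: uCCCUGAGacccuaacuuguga
miR-99a-3p: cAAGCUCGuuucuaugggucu
miR-99b-3p: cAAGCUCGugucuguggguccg
miR-125a-3p: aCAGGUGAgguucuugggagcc
miR-125b-1-3p: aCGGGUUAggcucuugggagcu
miR-125b-2-3p: aCAAGUCAgguucuugggaccu

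The first 3 sequences share a seed, and so do both miR-125 5p arms. Counted from 1 at the 5′ end, miR-100-5p differs from miR-99a-5p by U16A alone. miR-99b-5p differs from miR-99a-5p by A1C, U11A, U16C and U21C. miR-125a-5p and miR-125b-5p are identical over their first 13 nt and their last 5 nt. The miR-99a and miR-99b 3p arms share a seed too, whereas each miR-125 3p arm has a seed of its own.

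Mir99a (miR-99a-5p at chr16:77598940-77598961, plus strand) and Mir125b-2 (miR-125b-5p at chr16:77646279-77646300) lie 47339 bp apart in introns of the noncoding host gene Mir99ahg, with Mirlet7c-1 between them. Mir100 (miR-100-5p at chr9:41531437-41531458) and Mir125b-1 (miR-125b-5p at chr9:41581940-41581961) lie 50503 bp apart on the plus strand, around Mirlet7a-2. They sit in introns of the noncoding genes 3110039I08Rik (Mir100hg in RefSeq) and Gm49317, and Mir125b-1 also lies in an exon of Gm28119. The third locus is compact: Mir99b (miR-99b-5p at chr17:17830194-17830215), Mirlet7e and Mir125a (miR-125a-5p at chr17:17830817-17830840) span 623 bp between the first bases of their outer 5p arms. Mir99b is in an intron of the protein-coding gene Spaca6, and Mir125a overlaps an annotated Spaca6 exon. miR-125b-5p is thus made at 2 places, and only its 3p arms tell the places apart.

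**Figure D1:**
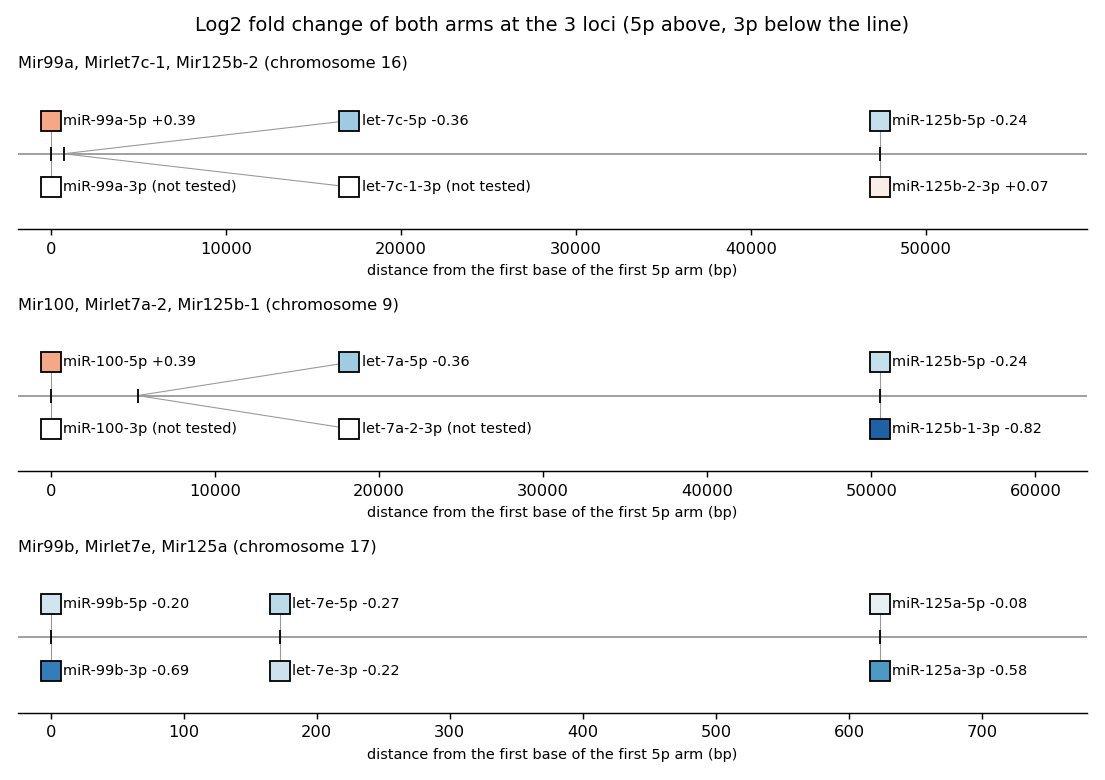
Log2 fold change in TAC relative to sham for each mature miRNA of the 3 loci, with 5p arms above and 3p arms below the line, against distance in bp from the first base of the first 5p arm. Black ticks mark true positions, the let-7 squares of the upper rows are drawn aside for legibility, white squares were not tested, and the 5p rows of let-7a, let-7c and miR-125b hold counts from 2 places. The deepest blue is at miR-125b-1-3p (-0.82), while miR-99a-5p and miR-100-5p are the deepest red (0.39 each). miR-125b-2-3p (0.07) lies only slightly on the red side.

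Of the 8 rows, 7 had enough counts to be tested, and 2 rose, 2 fell and 3 did not pass. Over all 354 miRNAs tested, 30.5% were called, 19.2% as higher and 11.3% as lower. The 7 rows' median log2 fold change was -0.20, against 0.07 for all miRNAs tested. Groups did not overlap for 6 of the 7 rows, where this held for 51.4% of all miRNAs tested. The rises were those of miR-99a-5p and miR-100-5p, the falls those of miR-99b-3p and miR-125a-3p. Of the 4 tested 3p arms of the 6 hairpins, 3 fell, beside 12.7% of all 166 tested 3p rows. Those 3 included the 3p arm of the chromosome 9 miR-125b hairpin, which is not among the 8 rows. That of the chromosome 16 hairpin did not pass.

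miR-99a-5p was the fifth most abundant row of the table. It stood at 41524.7, 38947.5 and 33166.1 CPM in sham 47, 68 and 69, and at 47957.3, 51816.9 and 49003.4 CPM in TAC 29, 78 and 81. Every TAC heart was above every sham heart, and sham 69 was the lowest. The log2 fold change was 0.39 ± 0.11, a 1.31-fold rise (edgeR adjusted p = 0.0288). Its size and call depended on the scaling. DESeq2, with its own size factors, called it at 0.29 (adjusted p = 0.0446). In edgeR it was not called with RLE factors (0.31, adjusted p = 0.068), upper quartile factors (0.24, adjusted p = 0.122), totals lacking the 5 most abundant miRNAs (0.23, adjusted p = 0.131) or library totals (0.08, adjusted p = 0.589). The median of all miRNAs tested was 0.07 with TMM and -0.235 with library totals. As a share of all counts, miR-99a-5p held 4.21% ± 0.446 in sham and 4.46% ± 0.227 in TAC. The call was lost in 12 of 19 alternative analyses, among them those without sham 68 (0.42), sham 69 (0.29), TAC 29 (0.40), TAC 78 (0.35) or TAC 81 (0.39).

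miR-100-5p gave almost the same numbers, 36910.0 ± 4171.5 CPM in sham and 48297.2 ± 1994.5 CPM in TAC. Its ratio to miR-99a-5p lay between 0.972 and 0.975 in all 6 hearts. The rows come from different chromosomes and their sequences differ at 1 base, so their 2 rises are not treated as independent. With near-identical sequences summed, the pair had a log2 fold change of 0.40 (edgeR adjusted p = 0.0399), and its call was lost in the same 12 alternatives as that of miR-99a-5p. Which locus supplied the reads could not be read from the 5p arms. The 3p arms were too rare to help: miR-99a-3p, which was not tested, was counted 8, 7 and 3 times in sham 47, 68 and 69, and only 4, 1 and 0 times in TAC 29, 78 and 81. miR-100-3p had 0 counts in every sham heart and 3, 1 and 0 in TAC 29, 78 and 81. Before TMM scaling, a count of 0 allows up to 0.855 to 1.65 CPM in the sham libraries and up to 2.45 CPM in TAC 81, for counting error only.

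miR-99b, whose 5p arm carries the same seed, did not follow that pair. miR-99b-5p was at 2295.4, 2352.4 and 2113.5 CPM in sham 47, 68 and 69 and at 1872.7, 2095.1 and 1921.1 CPM in TAC 29, 78 and 81. All TAC hearts were below all sham hearts, by a small margin between TAC 78 and sham 69. The log2 fold change of -0.20 ± 0.09 did not pass (edgeR adjusted p = 0.111). It was called lower in 5 alternative analyses that change the scaling, with library totals the furthest (-0.51), and its sign turned (0.05) when a trend with GC content was removed. The count ratio of miR-99b-5p to miR-99a-5p needs no scaling: it was 0.0553, 0.0604 and 0.0637 in sham 47, 68 and 69, against 0.0391, 0.0404 and 0.0392 in TAC 29, 78 and 81. The groups lay apart, 1.51-fold lower in TAC, with an exact permutation p of 0.1 (two-sided), the smallest that 3 against 3 allows, and 0.15 adjusted over the 15 ratios computed. The ratio can still hold a trend with GC content, as miR-99b-5p has 63.6% GC and miR-99a-5p 50.0%. With that trend removed, their log2 fold changes were 0.05 and 0.41.

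miR-99b-3p, the other arm of that hairpin, fell most evenly. It was at 259.0, 254.0 and 252.6 CPM in the sham hearts 47, 68 and 69 and at 163.3, 163.9 and 145.6 CPM in TAC 29, 78 and 81. The sham hearts were nearly equal and the TAC hearts all lower. The log2 fold change was -0.69 ± 0.12, 1.62-fold lower in TAC (edgeR adjusted p = 0.00439). The call held in all 19 alternative analyses, and the change was smallest, at -0.45, with the GC trend removed, the arm having 63.6% GC.

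miR-125a-5p, from the same short stretch of chromosome 17, did not pass in either direction. It was at 1547.9, 1643.2 and 1672.1 CPM in sham 47, 68 and 69 and at 1568.6, 1555.7 and 1487.1 CPM in TAC 29, 78 and 81. These groups overlapped, and the log2 fold change was -0.08 ± 0.08 (edgeR adjusted p = 0.485). With library totals it was called lower (-0.38). Its 3p arm was rare, at 45.5, 36.6 and 42.7 CPM in sham 47, 68 and 69 and 26.6, 34.3 and 22.6 CPM in TAC 29, 78 and 81. All TAC hearts were below all sham hearts, TAC 78 only just. In TAC, miR-125a-3p fell by 0.58 ± 0.19 (log2) at the edge of the threshold (edgeR adjusted p = 0.0499). That call was lost in 10 of 19 alternatives, among them those without sham 47 (-0.48), sham 68 (-0.65), sham 69 (-0.58), TAC 29 (-0.54) or TAC 81 (-0.46).

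miR-125b-5p was the most abundant miR-125 row. It stood at 13776.3, 12425.2 and 12521.4 CPM in sham 47, 68 and 69 and at 11837.4, 9658.1 and 11361.2 CPM in TAC 29, 78 and 81. All TAC hearts were lower, and the log2 fold change of -0.24 ± 0.10 did not pass (edgeR adjusted p = 0.0987). It was called lower in 6 of 19 alternatives, with RLE size factors (-0.31), upper quartile factors (-0.39), library totals (-0.55) and DESeq2 (-0.33) among them. The ratio of miR-125a-5p to miR-125b-5p overlapped between the groups, at 0.112 to 0.134 in sham and 0.131 to 0.161 in TAC.

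**Figure D2:**
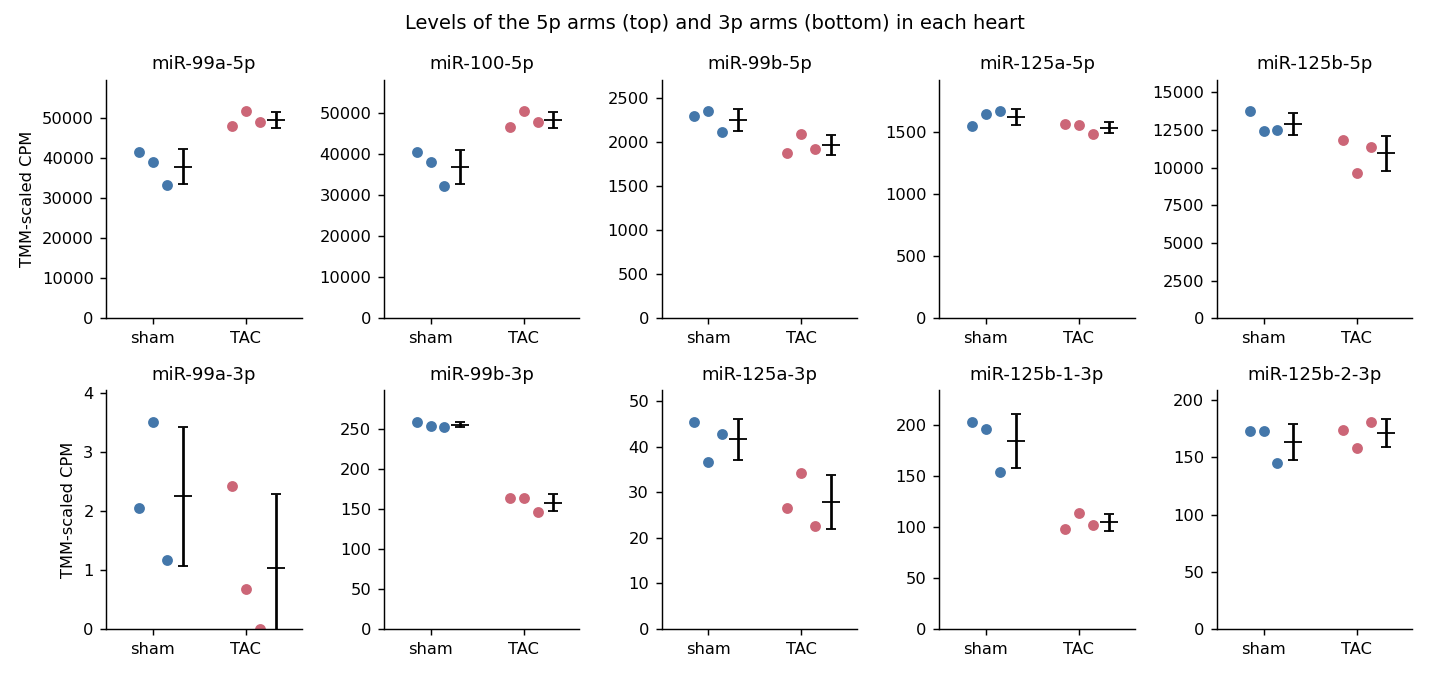
TMM-scaled CPM (axes from 0) of the 5p arms in the upper row and the 3p arms in the lower row; each point is 1 heart, and the bar is the mean with SD of 3 hearts. miR-99a-5p and miR-100-5p are higher in all TAC hearts, a rise whose call was lost in 12 of 19 alternative analyses, library totals among them. miR-99b-3p and miR-125b-1-3p are lower in all TAC hearts, and miR-125b-2-3p overlaps.

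The 3p arms separated the miR-125b hairpins. miR-125b-1-3p, from chromosome 9 (chr9:41581980-41582001), was at 203.5, 196.2 and 154.3 CPM in sham 47, 68 and 69 and at 98.0, 114.2 and 102.4 CPM in TAC 29, 78 and 81. Sham 69 was the lowest sham heart and still above every TAC heart. Its fall of 1.76-fold, a log2 fold change of -0.82 ± 0.16, passed (edgeR adjusted p = 0.0064), and this call too held in all 19 alternatives (-1.12 to -0.61). miR-125b-2-3p, from chromosome 16 (chr16:77646318-77646339), was at 172.8, 172.7 and 144.9 CPM in sham 47, 68 and 69 and at 174.2, 157.9 and 181.3 CPM in TAC 29, 78 and 81. Here the groups overlapped, and the log2 fold change was 0.07 ± 0.14 (edgeR adjusted p = 0.726), with a sign that turned under other scalings, to -0.24 with library totals.

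Set against each other within each library, these arms gave a difference that no scaling between libraries can alter. A trend with GC content can alter it, as miR-125b-1-3p has 59.1% GC and miR-125b-2-3p 50.0%. With that trend removed, their log2 fold changes were -0.61 and 0.08. There were 1.178, 1.137 and 1.065 counts of miR-125b-1-3p for each count of miR-125b-2-3p in sham 47, 68 and 69, against 0.5625, 0.7234 and 0.5648 in TAC 29, 78 and 81. Thus the chromosome 9 arm had more counts than the other in every sham heart and fewer in every TAC heart. The ratio was 1.83-fold lower in TAC (exact two-sided permutation p = 0.1, 0.15 adjusted over 15 ratios). This ratio was added after the data were seen.

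The hairpin of Mir125b-1 (RefSeq, GRCm38.p6, chr9:41581926-41582002, plus strand) is shown with both mature arms in capitals, because its 5p arm is shared with Mir125b-2 and its 3p arm is not. That of Mir125a (chr17:17830812-17830879, plus strand) is shown beside it because its 3p arm fell as well.
Mir125b-1: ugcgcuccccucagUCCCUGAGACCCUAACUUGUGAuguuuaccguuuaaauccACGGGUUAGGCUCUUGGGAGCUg
Mir125a: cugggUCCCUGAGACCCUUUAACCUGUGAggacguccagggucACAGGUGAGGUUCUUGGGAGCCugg

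Arm ratios were then set beside those of all 104 hairpins with both arms tested, with limma on the log2 ratio of 5p to 3p counts, a test chosen after the data were seen. Of these hairpins 17.3% were called, 8.65% with a higher ratio in TAC, and 31.7% had groups that did not overlap. The median difference was -0.0040. Among the 4 hairpins described here 2 were called, both higher, and in all 4 the groups did not overlap. Both miR-125b ratios use the same miR-125b-5p row, which pools both hairpins. They are thus not independent, and neither is the ratio of a single hairpin. The miR-99b ratio was 8.86, 9.26 and 8.37 in sham 47, 68 and 69, against 11.47, 12.78 and 13.19 in TAC 29, 78 and 81. It rose by 0.50 ± 0.11 on the log2 scale (limma adjusted p = 0.00431), with all TAC hearts above all sham hearts. Counts of miR-125b-5p per count of miR-125b-1-3p were 67.7, 63.31 and 81.15 in sham 47, 68 and 69, against 120.8, 84.58 and 111 in TAC 29, 78 and 81. This ratio rose by 0.56 ± 0.14 (limma adjusted p = 0.00968), with TAC 78 just above sham 69. For all 4 hairpins the planned exact two-sided permutation test gave p = 0.1 (0.15 adjusted over 15 ratios). By that test none passed, and 0.1 is the smallest p that 3 against 3 allows.

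The miR-125a ratio was 34.02, 44.85 and 39.17 in sham 47, 68 and 69, against 58.95, 45.41 and 65.96 in TAC 29, 78 and 81. Its difference of 0.51 ± 0.20 did not pass (limma adjusted p = 0.0694), although every TAC heart was higher. Counts of miR-125b-5p per count of miR-125b-2-3p went the other way, from 79.7, 72.0 and 86.4 in sham 47, 68 and 69 to 68.0, 61.2 and 62.7 in TAC 29, 78 and 81, and the difference of -0.31 ± 0.12 did not pass either (limma adjusted p = 0.0613). Without TAC 81, the shallowest library, 4 of 104 hairpins were called, and the miR-99b and miR-125b-1 ratios were at 0.46 and 0.52 with limma adjusted p = 0.0507 and 0.0585. With a trend on the GC difference of the arms removed they stayed called, at 0.45 and 0.46.

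**Figure D3:**
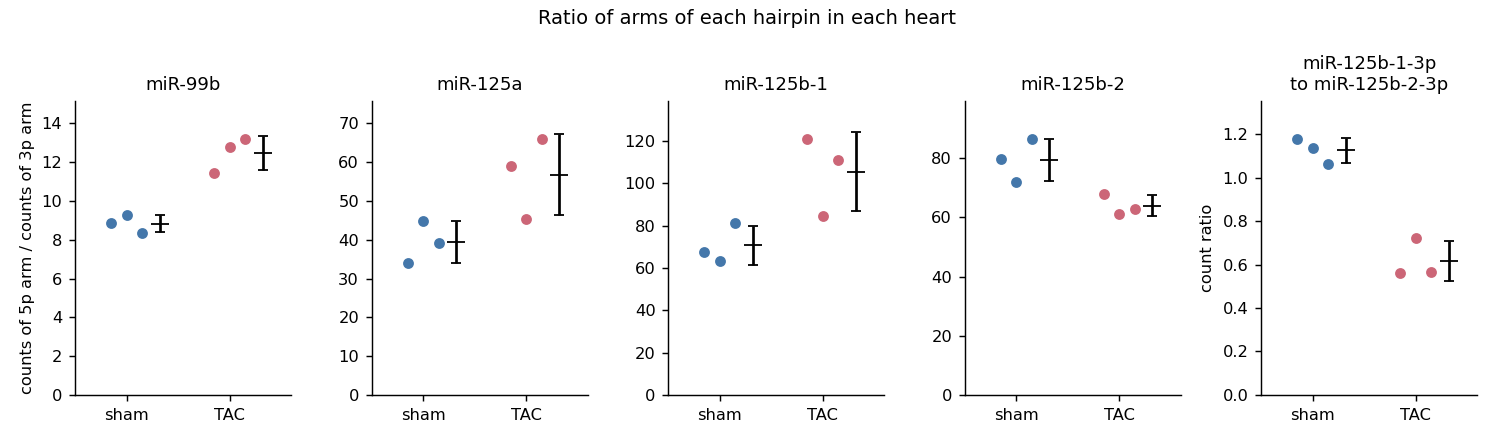
Counts of the 5p arm divided by counts of the 3p arm for 4 hairpins, and of miR-125b-1-3p divided by miR-125b-2-3p, on axes from 0; each point is 1 heart and bars are the mean with SD of 3 hearts. The miR-125b panels share the same 5p counts, and the TAC hearts are higher over miR-125b-1-3p and lower over miR-125b-2-3p.

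**Figure D4:**
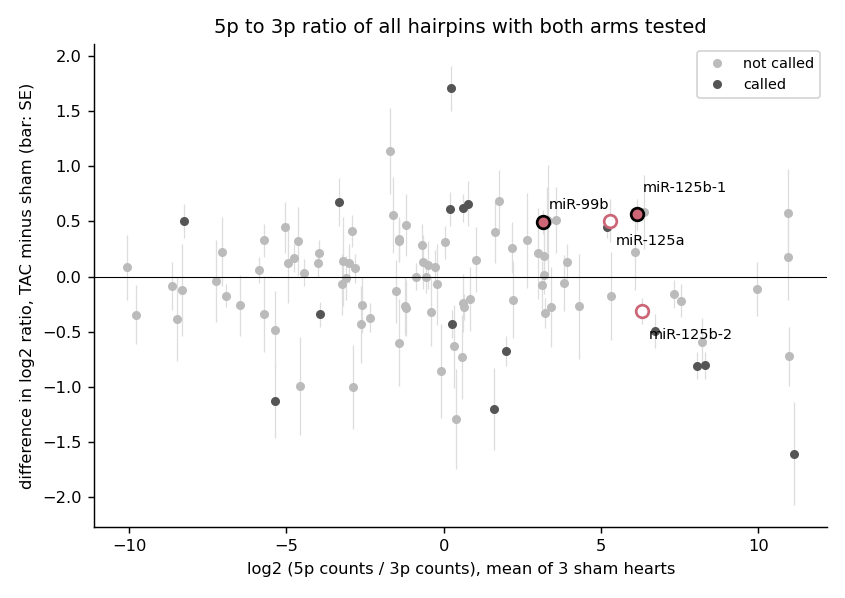
Difference in the log2 ratio of 5p to 3p counts (TAC minus sham, with its standard error) against the mean log2 ratio in sham for the 104 hairpins with both arms tested. Ringed points are the hairpins named in the text, filled red where called (miR-99b, miR-125b-1) and open where not (miR-125a, miR-125b-2); dark grey marks the other called hairpins, which lie on both sides of 0.

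The let-7 partners of these loci, miRNAs that hold back growth genes in differentiated cells, were lower or did not pass. Of 6 let-7 arms 4 were tested: let-7c-5p (-0.36 ± 0.11) and let-7a-5p (-0.36 ± 0.11) fell with edgeR adjusted p = 0.0396 and 0.0366, and let-7e-5p (-0.27 ± 0.13) and let-7e-3p (-0.22 ± 0.24) did not pass. let-7a-5p and let-7c-5p differ by 1 base and each has a second gene outside these loci, so their counts are not readouts of the loci, and both calls were lost when let-7 rows of near-identical sequence were summed (-0.17) and in 5 of the 6 analyses without 1 mouse. The 3p arms that would mark the loci were rare, let-7c-1-3p with 6 to 19 counts and let-7a-2-3p with 0 to 2.

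Counts of miR-99a-5p per count of let-7c-5p were 0.688, 0.7885 and 0.5409 in sham 47, 68 and 69, against 1.09, 1.13 and 1.13 in TAC 29, 78 and 81. The ratio shifted 1.68-fold (exact two-sided permutation p = 0.1, 0.15 adjusted over 15 ratios). By deposited counts, let-7c-5p was the larger row in every sham heart and miR-99a-5p in every TAC heart. But let-7c-5p has 2 places and miR-99a-5p 1, so which row is larger depends on how reads with several places were counted. The fold shift does not depend on this. On chromosome 17, where let-7e has a single gene, the counts of miR-99b-5p per count of let-7e-5p were 7.132, 6.501 and 5.866 in sham 47, 68 and 69, against 6.69, 6.54 and 7.28 in TAC 29, 78 and 81. Those groups overlapped (exact two-sided permutation p = 0.4). The ratio of miR-125a-5p to let-7e-5p was 4.541 to 4.809 in sham and 4.855 to 5.633 in TAC, groups that lay just apart (exact two-sided permutation p = 0.1). That of miR-99b-5p to miR-125a-5p was 1.264 to 1.483 in sham and 1.194 to 1.347 in TAC, with overlap (exact two-sided permutation p = 0.3). With 3 against 3, a p above the threshold does not show that such proportions were equal.

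Relatives by sequence went in both directions. miR-351-5p, a rodent miRNA of the X chromosome with the miR-125 seed, fell by 0.58 ± 0.16 (log2, edgeR adjusted p = 0.0288), from 169.0, 206.8 and 244.4 CPM in sham 47, 68 and 69 to 136.7, 142.4 and 136.2 CPM in TAC 29, 78 and 81. The TAC hearts were nearly equal and all lower, but the call was lost without sham 68 (-0.56), sham 69 (-0.44), TAC 29 (-0.57), TAC 78 (-0.60) or TAC 81 (-0.56), with libraries thinned to equal totals (-0.59) and with the GC trend removed (-0.34). The miR-10 miRNAs of the Hox clusters are relatives of miR-99 and miR-100 by sequence. miR-10a-5p rose by 0.72 ± 0.20 (edgeR adjusted p = 0.0283), from 1145.5 ± 168.8 to 1892.2 ± 521.3 CPM, with TAC 81 close to the sham hearts at 1301.1 CPM. That call was lost with library totals (0.43), upper quartile factors (0.58), totals without the 5 most abundant miRNAs (0.56) or the GC trend removed (0.58), and without sham 69 (0.59), TAC 29 (0.56) or TAC 78 (0.64), and without TAC 81 the change was 0.93. miR-10b-5p (0.38 ± 0.21) and miR-10a-3p (0.07 ± 0.27) did not pass.

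**Figure D5:**
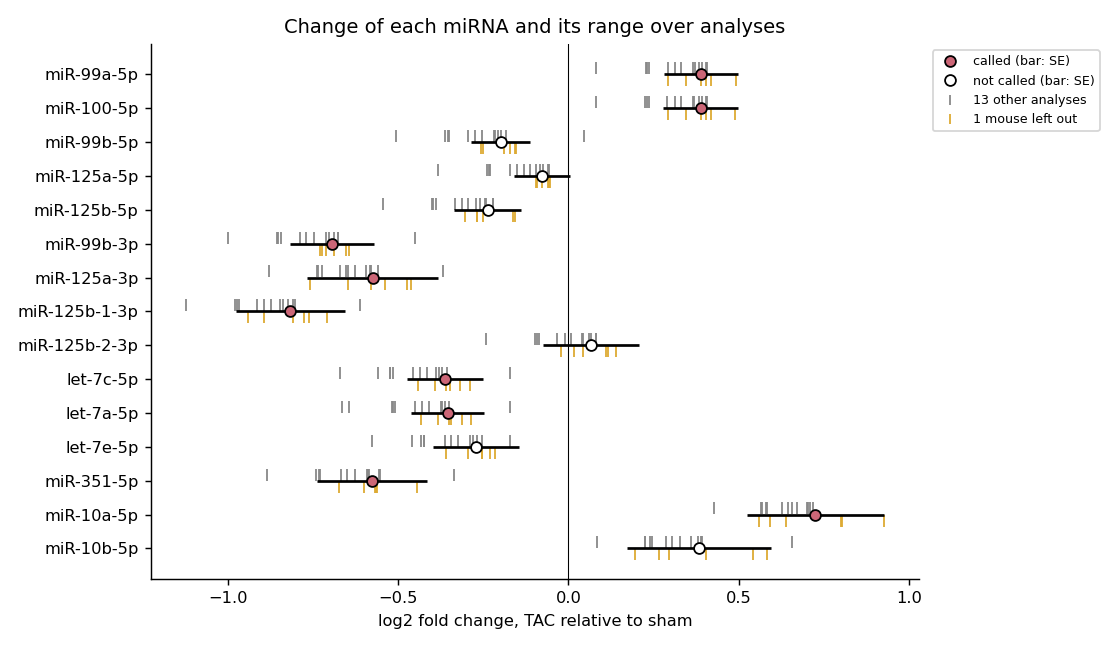
Log2 fold change in TAC relative to sham with its standard error (filled where called, open where not), with grey ticks for 13 other analyses and yellow ticks for analyses without 1 mouse. miR-99b-3p and miR-125b-1-3p stay below 0 in every analysis, miR-99a-5p and miR-100-5p reach 0.08 with library totals, and miR-125b-2-3p lies on both sides of 0.

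Likeness of profile was taken as the mean absolute difference of log2 CPM over the 6 hearts, each miRNA centred on its own mean, among 290 tested miRNAs of at least 10 CPM other than the 8 rows. miR-100-5p, whose ratio to miR-99a-5p hardly varied, was thus not among those compared. Of the others, nearest to miR-99a-5p were miR-143-5p (0.04), miR-872-5p (0.08) and miR-218-5p (0.08), where the median miRNA was at 0.27. Nearest to miR-125b-5p were miR-423-3p (0.06), miR-27b-3p (0.07) and, at 0.07 too, miR-27a-3p, against a median of 0.29.

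Marker miRNAs of several cell types differed between the groups as well. Over all 354 miRNAs tested, 19.2% were called higher and 11.3% lower. Of 6 mesenchymal and fibroblast miRNAs (miR-199, miR-214 and miR-21a rows), 5 fell and 0 rose, and their summed level was 26210.5 to 38375.8 CPM in sham and 17137.7 to 19751.6 CPM in TAC. Of 6 cardiomyocyte miRNAs 5 rose and 0 fell. Smooth muscle miRNAs (miR-143 and miR-145a rows) rose in 3 of 4, with sums of 34625.6 to 43243.9 CPM in sham and 59519.0 to 62551.1 CPM in TAC. Of 5 tested leukocyte miRNAs 1 rose, which is near the share called higher over all miRNAs tested. Of 2 tested red blood cell miRNAs 1 rose. Sums were 1112.9 to 1502.2 CPM in sham and 1499.6 to 1626.1 CPM in TAC for leukocytes, with overlap, and 962.7 to 1122.3 and 1596.7 to 2993.9 CPM for red blood cells. All these sums and calls are on the TMM scale. On it, all 354 tested miRNAs together summed to 885578.1 to 912260.0 CPM in sham and 1085296.6 to 1151287.5 CPM in TAC. With library totals, 25 of all tested miRNAs were called higher and 102 lower, against 68 and 40 with TMM. miR-142a-3p and miR-486a-5p were at 0. Both arms of the endothelial miR-126a were at 0, the 1 tested endothelial row did not pass, and the 3 rows summed to 5.62 to 7.44 CPM in sham and 5.64 to 8.06 CPM in TAC, so endothelial cells could not be followed. How reads were counted is not given, so a count of 0 in these marker rows is not read as absence. The part of these differences in the values of miR-99, miR-100 and miR-125 was not tested. The sham and TAC labels were taken as given, and no marker was used to check them.

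The 8 rows together held 10.2% ± 0.938 of all counts in sham and 10.1% ± 0.408 in TAC, most of it miR-99a-5p and miR-100-5p. With that pair counted once and counts divided by the number of places, the shares were 7.26% ± 0.642 and 7.20% ± 0.240.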

How the data were processed

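The authors deposited whole-number read counts per mature miRNA, 1 column per mouse. The submitters' processing notes name HISAT2, StringTie, DESeq2 and the build mm10, without role or version. How reads were trimmed and counted, and whether by strand, the sources used here do not give. Each library's number in the labels was taken as its mouse.

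From the deposited counts, edgeR 4.0.16 (filterByExpr, TMM, quasi-likelihood test, Benjamini-Hochberg over all 354 miRNAs) was run in R 4.3.3. Arm ratios used limma 3.58.1 with 0.5 counts added, and exact permutation tests used scipy 1.17.1. The code was tested on simulated data. Alternatives were DESeq2 1.42.0, limma-voom, other scalings, other filters, counts divided by places, summed near-identical rows (up to 2 mismatches), thinning, removal of a GC trend (span 0.75, 312 miRNAs with a RefSeq sequence), removal of rows with 10 nt or more of opposite-strand overlap, and leaving out each mouse. Host genes came from GENCODE M21.

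The miRNAs and lists were chosen with earlier results of these data known. The text names the 8 rows, the other arms, the let-7 partners, miR-351, miR-10 and the 3 nearest profiles, outside the 8 rows, of miR-99a-5p and miR-125b-5p, the 2 most abundant when near-identical rows count once. A read matching several places may be counted at each, which raises rows with 2 places and ties near-identical rows. Intervals from counts cover counting error only.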

Additional observations from a re-analysis of the deposited data

How the results depend on the processing

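Of 19 alternative analyses, all kept the falls of miR-99b-3p and miR-125b-1-3p. Calls over all miRNAs numbered 108, 65 with the GC trend removed, and 64 to 83 without 1 mouse (64 without TAC 81, 69 without TAC 78). The split was 68 higher and 40 lower with TMM, 50 and 56 with RLE factors, 25 and 102 with library totals, 43 and 72 leaving the 5 most abundant miRNAs out of the totals, 41 and 63 with upper quartile factors, 58 and 62 with DESeq2, 42 and 65 without a low-count filter, and 51 and 52 with counts divided by places. Of the 8 rows, 2 were called higher, but 0 with RLE or upper quartile factors, library totals, totals lacking the 5 most abundant miRNAs, no low-count filter, counts divided by places or opposite-strand rows removed, and 0 to 2 without 1 mouse. The rows called lower were 2, but 4 with DESeq2, RLE or upper quartile factors or totals lacking the 5 most abundant miRNAs, 5 with library totals, 3 without a low-count filter, 1 with limma-voom, summed near-identical rows, thinning, the GC trend or opposite-strand rows removed, and 1 to 2 without 1 mouse. The change in their share of counts was -0.104 percentage points, 0.2785 with counts divided by places, 1.439 over totals without the 5 most abundant miRNAs, and -0.5819 to 0.3554 without 1 mouse.

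Signs that turned were all of miRNAs not called. miR-99b-5p was at 0.0451 with the GC trend removed. miR-125b-2-3p was at -0.0339 with DESeq2, -0.0102 with RLE factors, -0.0877 with upper quartile factors, -0.2423 with library totals, -0.0970 with totals lacking the 5 most abundant miRNAs, -0.0930 without a filter, and from -0.0217 (without sham 69) to 0.1398 without 1 mouse. miR-10a-3p was at -0.0287, -0.0109, -0.0816, -0.2366, -0.0933 and -0.0926 in the first 6 of these, -0.1840 with thinning, -0.2108 with the GC trend removed, and from -0.1226 (without sham 69; -0.0377 without TAC 81) to 0.1865 without 1 mouse. The cause was not tested. miR-125a-3p rested on 24 to 178 counts per library, which limits its precision. No paired analysis was possible because the groups share no mouse numbers.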
